A study of Mus musculus with 4 samples.

Results

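Transcripts of 9 genes of blood clotting and fibrin breakdown were followed in cultured mouse macrophages: F3, F7, F10, F13a1, Thbd, Tfpi, Plau, Plaur and Serpinb2. The members were taken by gene symbol, and all 9 were found among the 18256 genes listed in each library. Wild-type bone marrow cells were grown into macrophages for 7 days with 20 ng/ml of the growth factor MCSF, and the study compared 2 states. M0 cells stayed unstimulated in MCSF, and M1 cells received 20 ng/ml interferon-gamma (IFN-γ) with 100 ng/ml bacterial lipopolysaccharide (LPS) for the last 24 h. Each state has 2 libraries of RNA depleted of ribosomal RNA. The labels do not give the age or sex of the mice, whether marrow was pooled, or whether the M1 medium kept MCSF.

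Clotting starts when tissue factor on a cell surface binds factor VII, and the complex activates factor X, which turns prothrombin into thrombin. Thrombin makes fibrin, and factor XIII crosslinks it, while tissue factor pathway inhibitor and the thrombomodulin and protein C system hold the cascade back. Fibrin is removed by plasmin, which urokinase bound to its receptor releases from plasminogen, and serpins of the plasminogen activator inhibitor type block urokinase. Macrophages are known as a source of tissue factor, factor XIII subunit A, urokinase and its receptor.

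The libraries held 15921466 to 18987705 counts over genes, and 3 counts correspond to 0.144 to 0.185 CPM (counts scaled to 1000000 per library, adjusted for library composition). Macrophage markers summed to 20694 and 23003 CPM in M0 and to 29711 and 29225 CPM in M1, and 4 of the 8 rose, 2 fell and 2 did not pass. The activation markers Nos2, Il12b, Il6 and Cxcl9 summed to at most 0.959 CPM in M0 and to at least 620.4 CPM in M1. Among markers of other cells, the B cell gene Ms4a1 and the NK cell gene Ncr1 had no count in any library. Neutrophil markers summed to 80.6 and 79.3 CPM in M0 and 21.3 and 18.8 CPM in M1. Of these 7 markers, 5 were lower, Camp was higher (from 2.89 to 6.96 CPM) and Ly6g was too low to test. Stromal markers summed to 717 and 695 CPM in M0 against 458 and 520.2 CPM in M1, with 3 of 7 higher and 4 lower. The part of such other cells in the results was not tested. Replicate libraries differed beyond counting noise (chi-square per degree of freedom 9.15 for M0, 13.3 for M1). Whether they stem from separate mice or cultures is not stated, so the p-values rest on a spread between libraries that may be technical.

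Factor X and the serpin Serpinb2 rose most, urokinase and factor XIII subunit A fell, and transcripts of tissue factor stayed near the detection floor in both states. Of the 9 members, 8 had enough counts for the test. Of these, F7, F10, Plaur and Serpinb2 rose, F13a1, Thbd and Plau fell, and Tfpi did not pass (edgeR quasi-likelihood test, adjusted p under 0.05 over 12966 genes). That is 7 of 8 called, where 48.2% of all tested genes were called, 24.2% as higher and 24.0% as lower. The share of calls that were higher was 50.2% over all tested genes, and 29.8% when libraries were scaled by their totals, a setting that shifted the median gene by -0.25 on the log2 scale. The calls of the members, 4 higher and 3 lower, were the same in number under that scaling. The median log2 fold change of the 8 tested members was 0.64, against -0.02 over all tested genes. All 8 had M1 libraries on 1 side of both M0 libraries, as did 74.9% of tested genes. In bulk RNA, fewer cells of a type and less RNA per cell cannot be told apart.

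**Figure D1:**
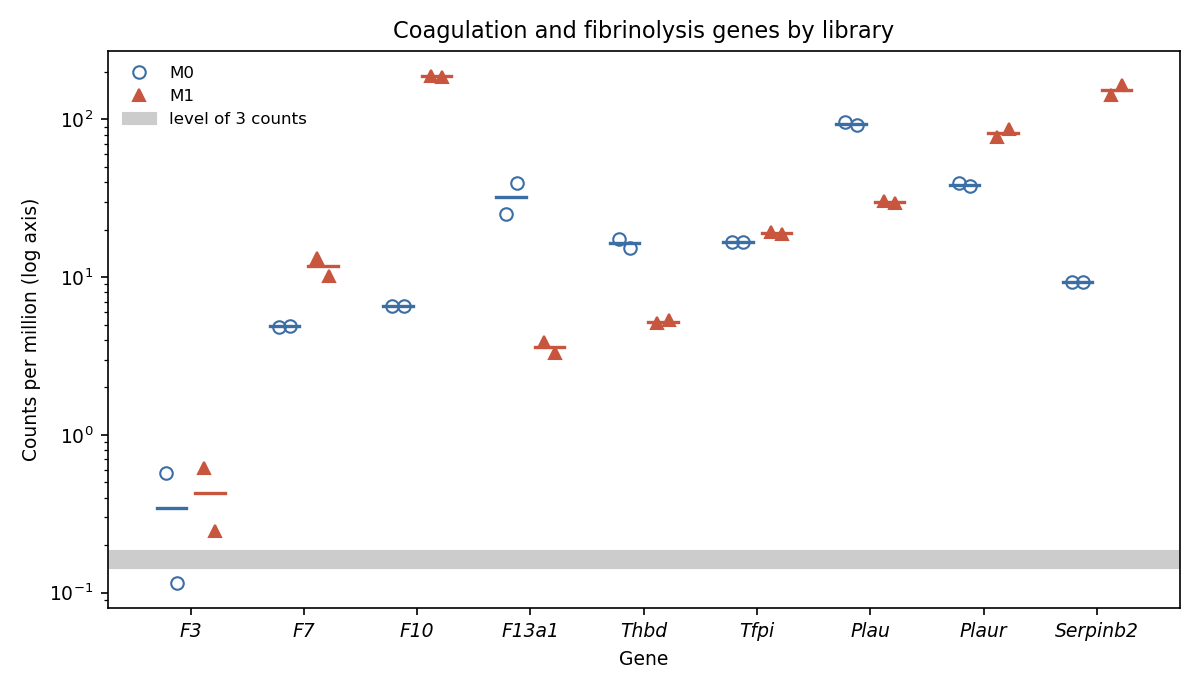
CPM (log axis) of the 9 members in each library, with open circles for M0, filled triangles for M1 and a short line at the mean of each group of 2. The grey band is the level of 3 counts in a library. Both M1 libraries lie above the M0 libraries for F10 and Serpinb2 and below them for Plau, and F3 lies between 0.116 and 0.616 CPM in all libraries.

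Promoter windows are shown for F10, Serpinb2 and Plaur, which were called higher, and for F13a1, which had the largest fall. F7 was also called higher, and its window was searched but is not printed. The windows run 5′ to 3′ on the gene's strand, from 250 bases before the annotated start to 50 bases after it. They follow RefSeq's annotation of assembly GRCm38.p6, which mm10 denotes. Capitals mark matches, on either strand, to the sequence motifs named after them.
F10 promoter: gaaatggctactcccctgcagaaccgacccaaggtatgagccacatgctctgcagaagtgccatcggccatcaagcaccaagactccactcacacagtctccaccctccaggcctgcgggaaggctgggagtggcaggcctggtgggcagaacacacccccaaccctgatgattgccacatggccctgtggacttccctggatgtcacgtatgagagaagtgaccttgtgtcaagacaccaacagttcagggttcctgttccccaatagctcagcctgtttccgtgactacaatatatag
Serpinb2 promoter: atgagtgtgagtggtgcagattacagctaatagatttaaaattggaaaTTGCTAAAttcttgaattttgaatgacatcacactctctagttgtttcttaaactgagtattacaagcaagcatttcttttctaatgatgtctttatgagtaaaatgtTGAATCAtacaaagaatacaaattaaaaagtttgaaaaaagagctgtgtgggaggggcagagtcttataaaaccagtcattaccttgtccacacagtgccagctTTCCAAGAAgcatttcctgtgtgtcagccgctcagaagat
Plaur promoter: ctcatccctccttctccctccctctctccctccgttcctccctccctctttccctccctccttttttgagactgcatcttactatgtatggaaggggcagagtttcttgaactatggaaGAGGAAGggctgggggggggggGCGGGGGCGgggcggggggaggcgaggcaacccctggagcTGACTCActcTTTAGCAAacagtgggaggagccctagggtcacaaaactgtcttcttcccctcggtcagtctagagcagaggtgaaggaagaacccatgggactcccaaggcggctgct
F13a1 promoter: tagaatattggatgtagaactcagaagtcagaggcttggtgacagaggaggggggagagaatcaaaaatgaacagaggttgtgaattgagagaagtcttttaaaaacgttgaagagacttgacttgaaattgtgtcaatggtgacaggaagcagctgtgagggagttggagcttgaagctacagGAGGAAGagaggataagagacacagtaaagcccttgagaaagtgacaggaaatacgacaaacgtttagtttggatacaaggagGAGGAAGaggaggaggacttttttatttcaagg
These windows lie at chr8:13037058-13037357 on the plus strand for F10, chr1:107511173-107511472 on the plus strand for Serpinb2, chr7:24462233-24462532 on the plus strand for Plaur and chr13:37050195-37050494 on the minus strand for F13a1.

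The motifs searched were those of NF-κB (GGG, any 2 bases, TT, any base, CC), AP-1 (TGANTCA), interferon-gamma-activated sites (GAS, TTCNNNGAA), interferon-stimulated response elements (GAAA, any 2 bases, GAAA), EGR factors (GCGNGGGCG), PU.1 (GAGGAAG) and C/EBP (TTGCNNAA), where N is any base. Windows were present for 7 members, as 10 windows with alternative starts counted. The AP-1 motif was found in windows of F3, Plaur and Serpinb2, and in 7.81% of all 32851 promoter windows of the table. In the Serpinb2 window shown it began at position -94 from the start site, with a C/EBP match at -202 and a GAS match at 11. The GAS motif was present in 8.3% of all windows, and C/EBP in 10.8%. The Plaur window held a PU.1 match at -131, an EGR match at -109, an AP-1 match at -69 and a C/EBP match at -59, where 13.6% of all windows held the PU.1 motif and 5.55% the EGR motif. The F3 window held AP-1 matches at -146 and -135. The F13a1 window shown held PU.1 matches at -66 and 18, and both Tfpi windows held a PU.1 match. No NF-κB or interferon-stimulated response element match was found in the members' windows, against 4.79% and 3.44% of all windows. Sites that depart from the letters given above were not searched, so these windows may hold variant sites. The F10 and F7 windows held none of the 7 motifs, which says only that these letters are not in these windows. Matches of different motifs did not overlap within the members' windows.

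Initiation of clotting begins with F3, which encodes tissue factor, the cell-surface receptor for factor VII (chromosome 3, 121723537 to 121735048 in GENCODE M21 on GRCm38). It had 12 and 2 counts in M0 and 10 and 4 counts in M1, or 0.576 and 0.116 CPM against 0.616 and 0.246 CPM. The groups overlapped, and M0 replicate 2 lay below the level of 3 counts. F3 did not pass the low-count filter. Tested without that filter, its log2 fold change was 0.29 (adjusted p = 0.89). F3 passed the filter when any 1 library other than M0 replicate 1 was left out, and its log2 fold change was then -0.41 without M0 replicate 2, -0.52 without M1 replicate 1 and 0.79 without M1 replicate 2 (adjusted p = 0.636 to 0.81). A difference in F3 between the states was not detectable at this depth.

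F7 and F10 encode the vitamin K-dependent clotting proteases factor VII and factor X, which are best known as products of the liver. F7 (chromosome 8, 13026034 to 13035809) stood at 4.85 and 4.93 CPM in M0 and at 13.2 and 10.2 CPM in M1. Both M1 libraries were higher, and the log2 fold change was 1.26 (SE 0.24, adjusted p = 0.00129). That call was lost without M0 replicate 1 (log2 fold change 1.25). The lowest adjusted p over the alternatives was 2.03e-06, with a block on crossed replicate numbers that was chosen after seeing the data. Over the other alternatives the lowest was 1.92e-05, without the low-count filter. F10 (chromosome 8, 13037308 to 13056676) stood at 6.52 and 6.55 CPM in M0 and at 188 and 186 CPM in M1. The groups were far apart and each was tight, and the rise was 28.6-fold (log2 fold change 4.84, SE 0.12, adjusted p = 2.24e-10). F10 ranked 183 from the top among tested genes by log2 fold change, and 3.03% of tested genes were called with a log2 rise of at least 3.

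F7 and F10 lie next to each other on the same strand, 1498 bases apart in RefSeq. The per-length ratio of F10 to F7, in CPM per kilobase of exon, was 0.917 and 0.905 in the M0 libraries and 9.68 and 12.5 in the M1 libraries. The gene pair was thus near parity in M0, with F10 ahead in both M1 libraries. Proz, the next gene beyond F10, encodes protein Z, a cofactor in the inhibition of factor X. It fell from 5.57 ± 0.484 to 2.28 ± 0.173 CPM (mean ± SD, n = 2 libraries per group here and below), a log2 fold change of -1.29 (adjusted p = 0.00744). Without M0 replicate 1 and without M0 replicate 2 the call on Proz was lost (adjusted p = 0.0604 and 0.0804, with 0.00122 the lowest over the alternatives). Mcf2l, on the other side of F7, fell from 16.5 ± 0.124 to 11.6 ± 0.692 CPM, a log2 fold change of -0.51 (adjusted p = 0.0328). The call on Mcf2l was lost with DESeq2 (adjusted p = 0.0766) and when any single library was left out (0.0539 to 0.133, with 0.00363 the lowest over the alternatives).

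F13a1 encodes the A subunit of factor XIII, the transglutaminase that crosslinks fibrin, and is also expressed by monocytes and platelets (chromosome 13, 36867178 to 37050244). It stood at 25.2 and 39.7 CPM in M0 and at 3.88 and 3.32 CPM in M1. Relative to their mean, the M0 libraries lay farther apart than for any other tested member, yet both were well above M1. The fall was 8.97-fold (log2 fold change -3.16, SE 0.25, adjusted p = 1.5e-06), where 2.45% of tested genes were called with a log2 fall of at least 3. Antisense Gm30489 overlaps 74 bases of its exons, and the strand setting of the counts is not given. Of other monocyte markers, Ccr2 fell from 41.5 ± 6.17 to 6.96 ± 0.955 CPM, while Ly6c2 rose from 2.85 ± 1.05 to 92.7 ± 1.49 CPM. Summed levels of the 6 platelet and megakaryocyte markers listed were 24.0 and 29.2 CPM in M0 and 82.0 and 68.7 CPM in M1, where Pf4 and Gp6 rose, Itga2b and Ppbp did not pass and 2 were too low to test. The part of such cells in the fall of F13a1 was not tested.

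**Figure D2:**
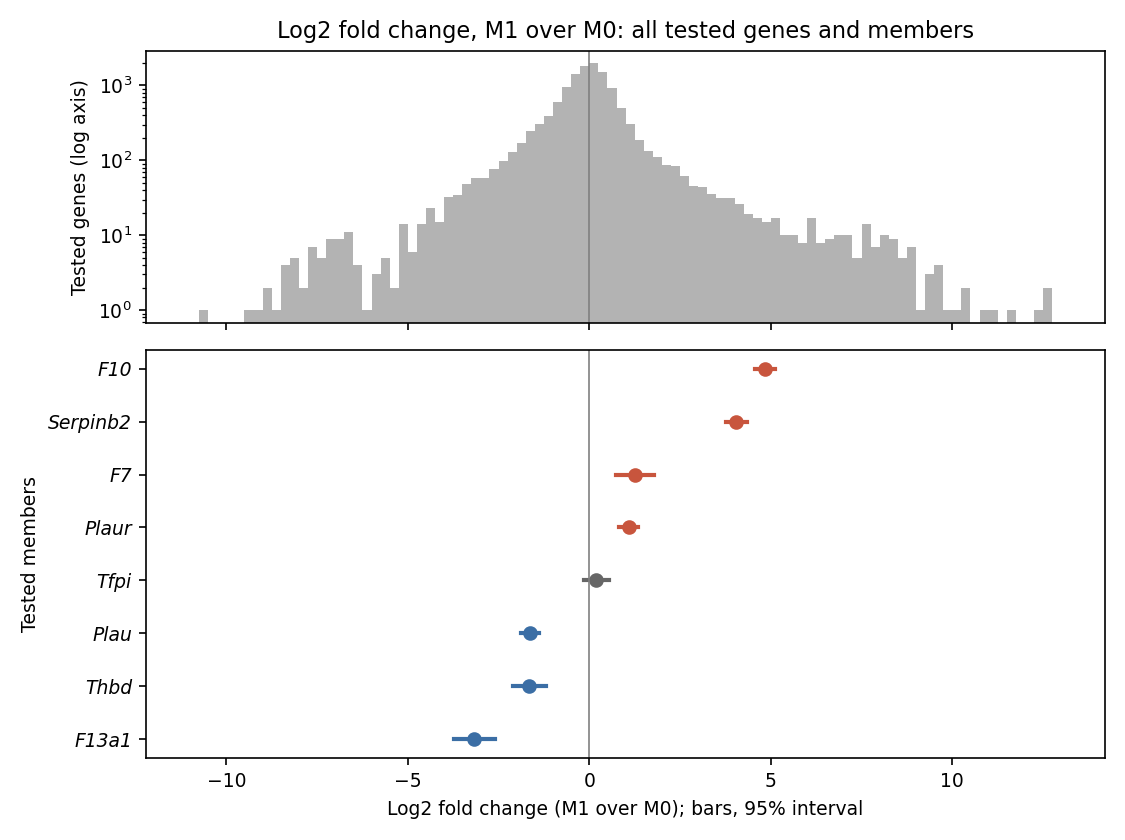
Distribution of log2 fold changes (M1 over M0) over 12966 tested genes, with gene number on a log axis (top), and the 8 tested members with 95% intervals (bottom; red higher, blue lower, grey not passed). F10 at 4.84 and Serpinb2 at 4.05 lie in the upper tail, F13a1 at -3.16 lies in the lower tail, and the interval of Tfpi spans 0.

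Of the anticoagulant members, Thbd fell and Tfpi did not pass. Thbd encodes thrombomodulin, the receptor that turns thrombin into an activator of protein C (chromosome 2, 148404466 to 148408188). It stood at 17.5 and 15.3 CPM in M0 and at 5.11 and 5.35 CPM in M1. Both M1 libraries were lower, a fall of 3.14-fold (log2 fold change -1.65, SE 0.21, adjusted p = 6.12e-05). The next gene on its strand's upstream side, Cd93, also fell, from 560.1 ± 26.3 to 109 ± 20.3 CPM, a log2 fold change of -2.36 (adjusted p = 6.44e-08). Tfpi encodes tissue factor pathway inhibitor, which blocks factor X and the complex of tissue factor with factor VII (chromosome 2, 84432855 to 84476775). It stood at 16.7 and 16.6 CPM in M0 and at 19.3 and 18.8 CPM in M1. The M1 libraries were the higher ones, but the difference did not pass (log2 fold change 0.20, 95% interval -0.15 to 0.54, adjusted p = 0.332). Scaled by library totals the sign of the Tfpi difference turned (log2 fold change -0.06, adjusted p = 0.786, with a range from 0.32 to 0.786 over the alternatives). Thbd and Tfpi are best known from endothelium. Of the endothelial markers, Pecam1, Cdh5 and Kdr rose, Vwf fell and Tek had no count. Their sums were 32.5 and 30.1 CPM in M0 and 20.6 and 26.1 CPM in M1. Vwf alone held 25.7 and 24.3 CPM of the M0 sums and 2.71 and 3.14 CPM of the M1 sums. The part of endothelial cells in the levels of Thbd and Tfpi was not tested.

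The plasminogen activation members moved in opposite directions. Plau encodes urokinase, the protease that cleaves plasminogen to plasmin (chromosome 14, 20836660 to 20843385). It stood at 96.3 and 91.7 CPM in M0 and at 30.3 and 29.7 CPM in M1. The libraries of each group lay close together, and the fall was 3.13-fold (log2 fold change -1.65, SE 0.11, adjusted p = 4.16e-07). Plaur encodes the urokinase receptor, which holds urokinase at the cell surface (chromosome 7, 24462484 to 24475968). It stood at 39.3 and 37.9 CPM in M0 and at 76.9 and 87.0 CPM in M1. Both M1 libraries were higher, a rise of 2.12-fold (log2 fold change 1.09, SE 0.12, adjusted p = 1.77e-05).

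Serpinb2 encodes plasminogen activator inhibitor type 2, a serpin that inhibits urokinase and is found largely inside cells (chromosome 1, 107511423 to 107535478). It stood at 9.31 and 9.28 CPM in M0 and at 143 and 165 CPM in M1. The groups did not overlap, and the rise was 16.6-fold (log2 fold change 4.05, SE 0.13, adjusted p = 9.63e-10). Serpinb2 ranked 247 from the top among tested genes. Its annotated exons share 291 bases with those of Serpinb10 on the same strand, and 10.4% of its 50-base words occur in transcripts of other genes. Serpinb10 itself had 4 counts in each M0 library and none in M1.

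Levels of different members were set side by side only per kilobase of exon. In M0 the order ran from Plau (39.7 ± 1.39 CPM per kilobase) and Plaur (14.8 ± 0.371) through F13a1 (4.81 ± 1.52), Thbd (4.41 ± 0.419) and Serpinb2 (3.96 ± 0.00908) to Tfpi (3.05 ± 0.0146), F7 (2.63 ± 0.0315), F10 (2.39 ± 0.00706) and F3 (0.137 ± 0.129). The F13a1 libraries in M0, at 3.74 and 5.88, spanned the levels of Thbd and Serpinb2 on this length, whereas those of Thbd, at 4.70 and 4.11, lay above those of Serpinb2, at 3.96 and 3.95. In M1 the order began with F10 (68.5 ± 0.554 CPM per kilobase) and Serpinb2 (65.6 ± 6.42), which overlapped. They were followed by Plaur (31.3 ± 2.73), Plau (12.7 ± 0.171), F7 (6.29 ± 1.17), Tfpi (3.49 ± 0.0572), Thbd (1.41 ± 0.0462), F13a1 (0.534 ± 0.0584) and F3 (0.171 ± 0.103). By group means on this length, F10 thus went from eighth place to the first. With the longest annotated transcript as length, Serpinb2 (77.2) stood ahead of F10 (74.8) in M1, and Serpinb2 (4.66) ahead of Thbd (4.41) in M0. The F10 libraries in M0, at 2.607 and 2.617 on that length, lay between those of F7, at 2.606 and 2.651. On that length the F13a1 libraries in M0, at 6.37 and 10.0, lay above those of Thbd, at 4.70 and 4.11, and of Serpinb2, at 4.66 and 4.65, while the Thbd libraries spanned those of Serpinb2.

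Ratios between partners were also taken per length. The ratio of Plau to Serpinb2, urokinase against an inhibitor, was 10.3 and 9.81 in the M0 libraries and 0.210 and 0.179 in the M1 libraries. That of Plaur to Plau, receptor against ligand, was 0.369 and 0.374 in M0 and 2.30 and 2.65 in M1. That of F10 to Tfpi, factor X against an inhibitor, was 0.782 and 0.790 in M0 and 19.5 and 19.8 in M1. The groups did not overlap for any of these 3 ratios, which were chosen after the values had been seen. With 2 libraries against 2 an exact two-sided permutation test cannot go below p = 0.333, so no test is given for them.

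**Figure D3:**
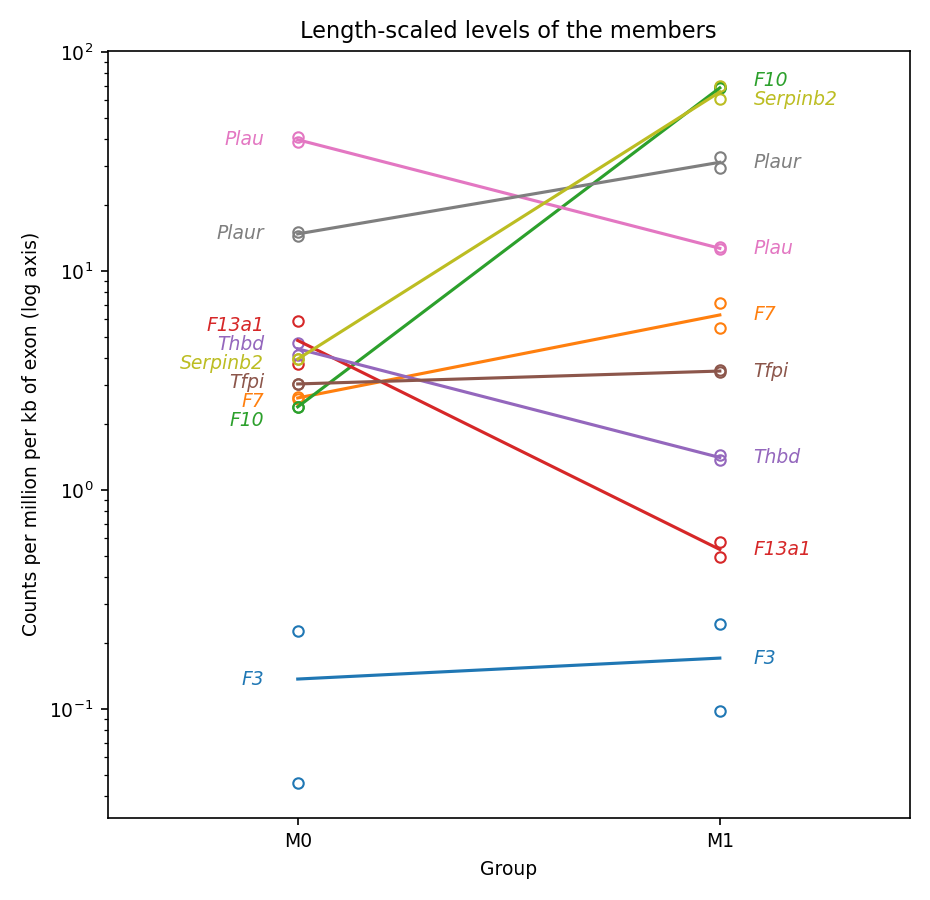
CPM per kilobase of exon (log axis) of the 9 members in M0 (left) and M1 (right), with open circles for libraries and lines joining group means. Plau leads in M0 at 39.7, F10 and Serpinb2 lead in M1 at 68.5 and 65.6, and F3 lies lowest in both.

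Genes with the most similar pattern were sought for F10 and F13a1, by the distance between mean-centred log2(CPM + 0.5) values over the 4 libraries among 8997 genes with a mean of at least 10 CPM. Nearest to F10 were Pilra (distance 0.139), Gm4951 (0.202) and Bcl2a1a (0.209). Pilra, a myeloid inhibitory receptor gene, rose from 22.7 ± 0.0187 to 560.4 ± 8.11 CPM. Nearest to F13a1 were Tnfsf12 (0.291), Lgals3 (0.318) and Cd5l (0.370). Lgals3, the galectin-3 gene, fell from 1334 ± 170.5 to 151 ± 18.9 CPM. With 2 groups of 2 libraries, the distance is set mostly by the fold change.

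Of the wider list of 49 other coagulation and fibrinolysis genes, 35 were listed in the files and 26 were tested. Among these 8 rose, 6 fell and 12 did not pass, so 14 of 26 were called where 48.2% of all tested genes were. The median log2 fold change was 0.09. Without M0 replicate 1, 3 falls were called. The protein C system gave the largest rise: Procr, the protein C receptor, stood at 4.61 and 5.28 CPM in M0 and at 101 and 95.0 CPM in M1 (log2 fold change 4.31, SE 0.14, adjusted p = 1.14e-09). It moved opposite to Thbd, which acts with it in activating protein C. Pros1 encodes protein S, the cofactor of activated protein C, and fell from 61.1 ± 3.56 to 11.4 ± 0.0824 CPM, a log2 fold change of -2.42 (adjusted p = 8.01e-08). Anxa5, which encodes the phosphatidylserine-binding annexin A5, had 732 ± 15.7 CPM in M0 against 733 ± 50.7 CPM in M1 and did not pass (95% interval of the log2 fold change -0.21 to 0.21). Scaled by library totals, Anxa5 passed as lower (log2 fold change -0.25, adjusted p = 0.0391, the lowest over the alternatives).

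Of 4 tested clotting factor genes, 1 rose, 2 fell and 1 did not pass, where 48.2% of all tested genes were called, and the calls on F12 and F5 were lost when single libraries were left out. Vwf, which encodes von Willebrand factor and is also an endothelial and platelet marker, fell from 25.0 ± 0.970 to 2.92 ± 0.304 CPM, a log2 fold change of -3.09 (SE 0.20, adjusted p = 3.01e-07). The endothelial markers Pecam1, Cdh5 and Kdr stood at 2.50 ± 0.149, 0.0959 ± 0.136 and 3.73 ± 0.689 CPM in M0, and the part of endothelial cells in the fall of Vwf was not tested. F5, the cofactor of factor X, had 46 and 12 counts in M0 and 4 in each M1 library (log2 fold change -2.54, adjusted p = 0.0227). F5 did not pass without M0 replicate 1 (log2 fold change -1.47, adjusted p = 0.289), without M1 replicate 1 (adjusted p = 0.0865), without M1 replicate 2 (0.085) or with limma-voom (0.0579), and its adjusted p ran from 0.0126 to 0.289 over the alternatives. F12, the starter of the contact pathway, had 7 and 15 counts in M0 and 40 and 36 in M1 (log2 fold change 1.97, adjusted p = 0.0213). F12 lost its call when any single library was left out (adjusted p = 0.0517 to 0.147, from 0.00924 over all alternatives, log2 fold change 1.42 without M0 replicate 1 and 2.78 without M0 replicate 2). F9 did not pass, at 1.97 ± 0.412 and 2.09 ± 0.696 CPM.

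On the fibrinolytic side, of 7 tested genes of plasminogen, its activators and receptors, 3 rose, 1 fell and 3 did not pass, where 48.2% of all tested genes were called. S100a10, the annexin A2 partner that binds plasminogen, rose from 62.9 ± 7.02 to 158 ± 16.6 CPM, a log2 fold change of 1.33 (adjusted p = 4.4e-06). Its partner Anxa2 did not pass, at 191 ± 14.9 and 203 ± 17.9 CPM (95% interval of the log2 fold change -0.15 to 0.32). Eno1, a glycolytic enzyme that also binds plasminogen at the cell surface, rose from 178 ± 15.8 to 443 ± 51.4 CPM (1.32, adjusted p = 2.75e-06). Its counts are uncertain because transcripts of other genes, Eno1b foremost, share 26.0% of its 50-base words. Lrp1, the endocytic receptor that clears complexes of urokinase and its inhibitors, fell from 2167 ± 347 to 605 ± 175 CPM (-1.84, adjusted p = 6.91e-06). Among fibrinolysis inhibitors, Serpine2, the protease nexin gene, fell from 13.7 ± 0.600 to 8.80 ± 0.693 CPM (-0.63, adjusted p = 0.0203). That call was lost without M0 replicate 1 (adjusted p = 0.096), M0 replicate 2 (0.122) or M1 replicate 1 (0.076), with 0.00278 the lowest over the alternatives. The tissue plasminogen activator gene Plat did not pass, at 1.37 ± 0.0341 and 2.06 ± 0.306 CPM.

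Genes that expose phosphatidylserine, the membrane lipid on which clotting factors assemble, also differed from each other. Xkr8, a scramblase gene, rose from 7.78 ± 0.260 to 42.4 ± 3.73 CPM, a log2 fold change of 2.44 (adjusted p = 2.49e-07). Ano6, the calcium-activated scramblase gene, did not pass, at 182 ± 4.03 and 174 ± 11.5 CPM (95% interval -0.28 to 0.15). Scaled by library totals it passed as lower (-0.32, adjusted p = 0.0191, the lowest over the alternatives). Of 5 tested genes for vitamin K-dependent carboxylation and factor secretion, 1 was called, where 48.2% of all tested genes were called. This was Lman1, which with Mcfd2 carries F5 and F8 proteins out of the endoplasmic reticulum. Lman1 rose from 102 ± 0.288 to 150.5 ± 17.2 CPM (0.56, adjusted p = 0.0014). Lman1 did not pass when M0 replicate 1 (log2 fold change 0.56) or M0 replicate 2 (0.57) was left out. Its lowest adjusted p over the alternatives was 8.09e-10, with the block on crossed replicate numbers, and 5.22e-05 over the others. Mcfd2 did not pass at 147 ± 12.2 and 164 ± 14.3 CPM, nor did the carboxylase gene Ggcx at 14.0 ± 1.80 and 16.0 ± 0.168 CPM or Vkorc1l1 at 50.1 ± 0.136 and 48.7 ± 4.99 CPM. Both tested thrombin receptor family genes, F2r and F2rl2, stood below 1.5 CPM in both groups and did not pass.

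**Figure D4:**
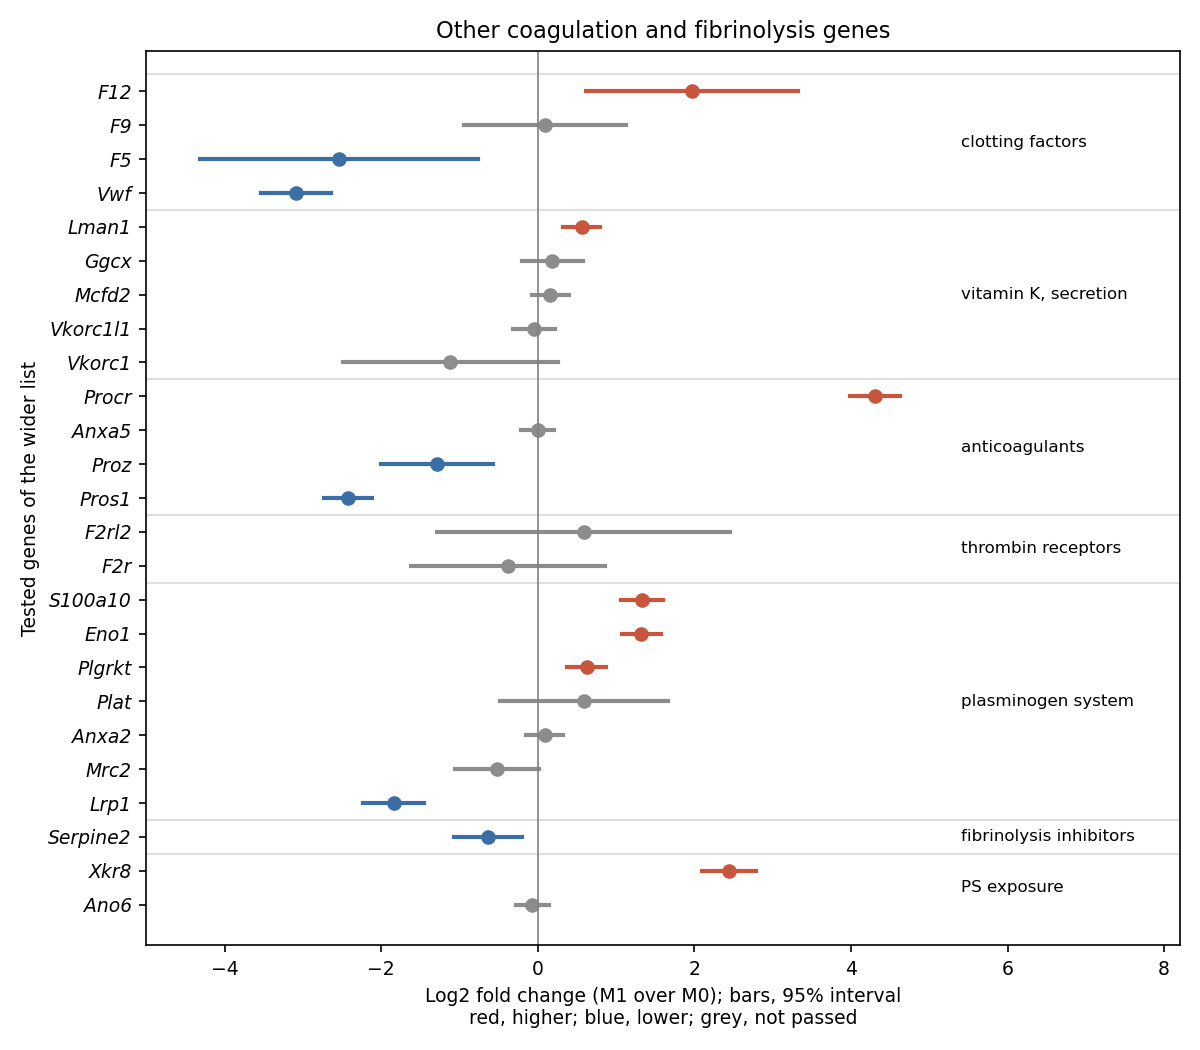
Log2 fold changes (M1 over M0) with 95% intervals for 25 of the 26 tested genes of the wider list, grouped by role (red higher, blue lower, grey not passed). Procr at 4.31 lies farthest to the right and Vwf at -3.09 farthest to the left.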

How the data were processed

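RNA-seq libraries of M0 and M1 macrophages, 2 each, were analysed. The authors deposited raw read counts for each symbol. The submitters' processing notes list featureCounts, Subread 2.0.1 and build mm10, and also DESeq2 1.30.1 and R 4.0.4. The annotation and strand setting are not given in the sources used here. Of 18256 symbols, 18226 matched RefSeq of GRCm38.p6.

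Genes were filtered with filterByExpr (minimum count 10, minimum total 15), leaving 12966. The test of M1 against M0 was the quasi-likelihood test of edgeR 4.0.16 in R 4.3.3 (TMM scaling, group only). P-values were adjusted by Benjamini-Hochberg over all tested genes, with a threshold of 0.05. SEs are the log2 fold change over the root of the F statistic. CPM used the TMM-scaled library sizes, and levels per kilobase used the union of GENCODE M21 exons. Alternatives were other scaling factors, DESeq2 1.42.0, limma-voom (limma 3.58.1), other filters, a replicate block and each library left out. The longest-transcript length and a crossed block were chosen after seeing the data.

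The members and lists were chosen with earlier results of these data known. Named genes were all members, called genes of the wider list with a log2 fold change of at least 1, the 6 highest that did not pass, and the 3 nearest patterns of 2 members. Outside that rule Mcf2l, Cd93 and Serpinb10 (nearest neighbours), Lman1, Serpine2, F9, Plat, F2r and F2rl2 were chosen after their values were seen. Some genes of the lists count in the totals but are not reported here by name. The script was tested on simulated counts.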

Additional observations from a re-analysis of the deposited data

How the results depend on the processing

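Over 13 alternatives, 103 of 104 values of the 8 tested members kept their side of the threshold, F7 without M0 replicate 1 being the exception, and the 7 called members kept their direction. Over all genes, 3140 were higher and 3109 lower. Library totals gave 2024 and 4776, and the cause was not tested. With single libraries left out, the counts ran from 1691 to 2966 higher and from 1463 to 2855 lower, lowest without M0 replicate 1 and next without M0 replicate 2 (1832 and 1549), in fits with fewer libraries. Called falls of the wider list then ran from 3 to 5. Anxa5 turned to -0.25 under library totals. The replicate number as a block gave 2957 higher and 2974 lower, with 4 and 3 members as before, and changed no call among the 8 tested members and 36 other genes refitted. Deviations of same-numbered libraries correlated at -0.11 across genes, and a block on crossed numbers gave 3648 and 3627, with nothing in the labels to pair the libraries either way. A level of 3 counts limits F3.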

Other observations

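Genes next to the members gave values outside the comparisons above, by nearest listed neighbour in RefSeq. Serpinb7, on the other side of Serpinb2 at a gap of 48202 bases, had 1 and 0 counts in M0 and 28 and 22 in M1 (called higher, adjusted p = 0.00103). Calcrl, a receptor gene of the calcitonin family next to Tfpi, rose from 65.2 ± 6.58 to 112 ± 9.14 CPM (SD, n = 2 libraries; log2 fold change 0.78, adjusted p = 0.000221), while Tfpi did not pass. Vcl, the vinculin gene on the higher-coordinate side of Plau at a gap of 85994 bases, fell from 38.3 ± 4.10 to 21.8 ± 9.83 CPM (-0.81, adjusted p = 0.0173). Vcl did not pass when M0 replicate 1 (adjusted p = 0.27, log2 fold change -0.70), M0 replicate 2 (0.17, -0.91) or M1 replicate 1 (0.0668, -0.42) was left out, and stood at -1.36 with M1 replicate 2 left out. Ly86, beyond F13a1 at a gap of 295100 bases, rose from 96.3 ± 10.3 to 131 ± 0.686 CPM (0.45, adjusted p = 0.00568), while F13a1 fell. The call on Ly86 was lost without M0 replicate 1 (adjusted p = 0.115) and under library totals (0.151). The remaining tested neighbours were also called, where 48.2% of all tested genes were called. These remaining neighbours were not refitted under the alternatives. Smg9 beside Plaur rose (0.83, adjusted p = 0.000379), as Plaur did. Abcd3 beside F3 fell (-0.71, adjusted p = 0.000345), and so did Gm13710 beside Tfpi (-2.27, adjusted p = 0.000973). These genes were named after their values had been seen, and no explanation was tested.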
